A study of Mus musculus with 8 samples.

Results

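The keratin and keratin-associated gene clusters of the mouse genome comprised 100 of 20807 autosomal protein-coding genes, and their contacts were followed in activated B cells by in situ Hi-C. Members were chosen by name and position, with earlier results of these data known. They are all protein-coding genes on chromosomes 11, 15 and 16 that are named Krt or Krtap. These form 1 array per chromosome with neighbours less than 500 kb apart. Of these genes 50 lie on chromosome 11, 26 on chromosome 15 and 24 on chromosome 16. The array on chromosome 11 (GRCm38, chr11:99200010-100300339, 22 bins of 50 kb) holds 27 type I keratin genes, from Krt222 to Krt42, with 23 Krtap genes between them. The array on chromosome 15 (chr15:101300115-102050207, 15 bins) holds 26 keratin genes from Krt80 to Krt18, which are type II genes with the exception of the type I gene Krt18. The array on chromosome 16 (chr16:88599995-89599676, 20 bins) holds 24 Krtap genes from Krtap24-1 to Krtap11-1. All 57 array bins were kept by the filters on unknown bases and coverage, so every member was measured.

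Keratins form the intermediate filaments of epithelial cells, and each filament is built from pairs of a type I and a type II chain. Basal keratinocytes of the skin use Krt14 with Krt5, the layers above them use Krt10 with Krt1, and simple epithelia use Krt18 with Krt8. Hair keratins such as Krt31 to Krt36 are embedded in a matrix of cysteine-rich or glycine- and tyrosine-rich proteins that the Krtap genes encode. B lymphocytes are not known to build keratin filaments, and the genes next to the arrays include several that lymphocytes do use. The Hi-C counts hold no RNA, so neither the silence of the arrays nor the B cell markers could be checked from them. The study also made RNA-seq at 3 h, 10 h and 33 h, which was not used here.

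Naive B cells from male C57BL/6 mice (C57BL/6 Pep3b background in the study's methods), 6 to 12 weeks old, were labelled with CellTrace Violet (CTV), a dye that is diluted at each division, and stimulated with 25 µg/ml lipopolysaccharide (LPS). Libraries were made 3 h and 10 h post-activation and at 33 h from undivided cells about to divide (imminent division), and further cells at 33 h came from mice that carry the FUCCI cell cycle reporter and were sorted before S phase (pre-S). The study describes the imminent division cells as bulk, and its sorting of them names no cell cycle gate. The groups at 33 h can therefore overlap in cell cycle stage. There were 2 biological replicates in each of the 4 groups. Strain, sorting gate and cell cycle stage cannot be told apart in the comparisons with pre-S, and all 33 h libraries differed from the earlier ones in culture time.

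The 8 libraries held 88703088 to 218945191 read pairs, a 2.47-fold range. The second imminent division library had 3.74% of its read pairs on chromosome X and 0.0490% on chromosome Y, against 2.39 to 2.84% and 0.0804 to 0.123% in the other 7 libraries. Only autosomes were tested, and values without this library are given where they change a result. Krtap genes within a family are near-identical in sequence, so the placing of reads among them is uncertain. The bin of the chromosome 11 array with the lowest coverage, which holds Krtap4-13, had 0.737 times the interchromosomal read pairs of the median autosomal bin, against 1.25 to 1.90 times in the flanks, the 1 Mb on either side. P-values measure the spread between these libraries.

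The surroundings of the arrays were not alike. Flanks of the chromosome 11 and chromosome 15 arrays held 1.95 and 1.6 protein-coding gene starts per 50 kb bin, against 0.433 over all autosomes. The flanks of the chromosome 16 array held 0.20, so this array is not set in a gene-rich region. The arrays themselves held 3.14, 1.93 and 1.90 starts per bin. These count their 50, 26 and 24 members and the 19, 3 and 14 other protein-coding genes that start within them. GC content was 44.3% in the chromosome 11 array and 48.3% in its flanks, 48.3% and 47.4% on chromosome 15, and 39.0% and 43.4% on chromosome 16.

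The promoters of the members, which the choice of members did not use, differed between the arrays in the share with the TATA sequence TATAAA, and 7 are shown, with and without it. These examples divide by chromosome more sharply than the shares given below. RefSeq promoters (GRCm38.p6) were matched to 80 of the 100 genes, giving 81 promoters, and the 100 bases before each start were searched for TATAAA on both strands. The 6 letters were found on the strand of the gene in 51 of 81 promoters (63%), against 3.8% of the 32851 promoters in the table, and counting either strand the shares were 63% and 5.56%. The share was 95.2% among chromosome 11 Krtap promoters (20 of 21), 69.6% among those of chromosome 16 (16 of 23), 57.1% among chromosome 11 keratins (12 of 21) and 18.8% among chromosome 15 keratins (3 of 16). Sequences run 5′ to 3′ on the strand of the gene and end 1 base before the start, and capitals mark TATAAA. Krt10 (chr11:99389365-99389464, minus strand), Krtap3-1 (chr11:99566631-99566730, minus strand), Krtap9-3 (chr11:99598107-99598206, minus strand) and Krtap8-1 (chr16:89487953-89488052, minus strand) carry it 26, 37, 30 and 29 bases before the start. The windows of Krt5 (chr15:101712906-101713005, minus strand), Krt8 (chr15:102004343-102004442, minus strand) and Krt18 (chr15:102028116-102028215, plus strand) do not hold these letters, and near matches were not counted. The window of Krt14 on chromosome 11 (chr11:100206031-100206130, minus strand), which is not shown, does not hold them either. The start in the promoter table lay over 100 bases from the GENCODE start of the gene in 5 of the 81 promoters, those of Krt7, Krt8, Krt13, Krt14 and Krtap15, and without them, a choice made after the values were seen, the share was 67.1% over all members (51 of 76) and 21.4% on chromosome 15 (3 of 14).
Krt10: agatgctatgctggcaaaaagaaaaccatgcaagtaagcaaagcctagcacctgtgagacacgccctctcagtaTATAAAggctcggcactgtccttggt
Krtap3-1: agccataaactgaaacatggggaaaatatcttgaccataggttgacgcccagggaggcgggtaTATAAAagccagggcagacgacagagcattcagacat
Krtap9-3: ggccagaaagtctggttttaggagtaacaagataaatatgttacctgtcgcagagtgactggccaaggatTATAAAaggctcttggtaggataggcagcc
Krtap8-1: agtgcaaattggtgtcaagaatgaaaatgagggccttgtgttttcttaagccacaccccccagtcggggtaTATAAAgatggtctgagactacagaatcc
Krt5: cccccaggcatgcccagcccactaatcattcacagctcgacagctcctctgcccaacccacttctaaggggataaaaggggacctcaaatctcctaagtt
Krt8: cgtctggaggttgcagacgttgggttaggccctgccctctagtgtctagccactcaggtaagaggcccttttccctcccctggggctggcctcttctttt
Krt18: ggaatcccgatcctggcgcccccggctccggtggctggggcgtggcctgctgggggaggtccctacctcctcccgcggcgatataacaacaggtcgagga

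On chromosome 11 the array was split by gene family, after the data had been seen, into an upstream keratin block of 7 bins (12 genes, Krt222 to Krt40), a Krtap block of 9 bins (23 genes, Krtap3-3 to Krtap17-1) and a downstream keratin block of 6 bins (15 genes, Krt33a to Krt42). Contacts were divided by the number expected at the same distance over all autosomes and are given as log2 values, in the order of the first and second libraries of 3 h, 10 h, imminent division and pre-S. The Krtap block had few contacts with either flank. With the upstream flank its values were -2.42, -2.58, -2.23, -2.20, -2.11, -2.39, -2.90 and -2.61. With the downstream flank, which starts with the translation initiation factor gene Eif1, they were -3.05, -3.34, -3.11, -3.10, -2.44, -2.46, -3.32 and -3.45. All 8 libraries were low, and the imminent division pair was least low on the downstream side.

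The keratin blocks on either side of the Krtap block made contacts with each other above the distance expectation. Values between the block of Krt10 and Krt12 and the block of Krt14 and Krt17 were 1.07, 0.81, 1.40, 1.36, 1.38, 1.46, 1.3 and 1.14. Every library was above 0, with both 3 h libraries below the other 6. The read pairs behind a value numbered 631 to 2624. With the expectation taken from chromosome 11 alone the range over libraries was 0.66 to 1.35, and with bin coverage included it was -0.03 to 0.70, so that the excess rested in part on how the expectation was set. The upstream keratin block also met the upstream flank, with values of 0.82, 0.65, 0.74, 0.82, 0.13, 0.19, 0.36 and 0.33. All 4 libraries at 33 h were below all 4 earlier ones. With bin coverage included the mean turned from 0.50 to -0.46, the range was -1.11 to 0.02, and the pre-S libraries (-0.34 and -0.46) overlapped those of 3 h (-0.32 and -0.36).

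**Figure D1:**
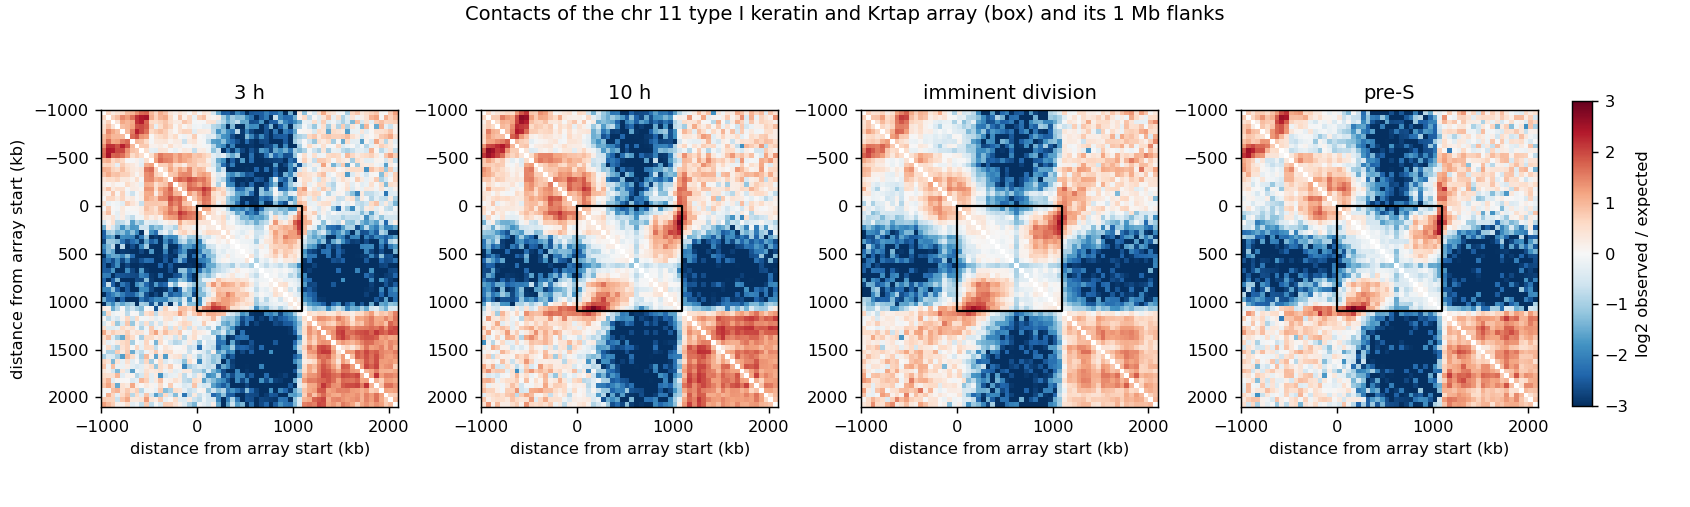
Log2 observed over expected contacts of 50 kb bins, averaged over the 2 libraries of each group, with both axes in kb from the start of the chromosome 11 array (box). The dark blue bands are the Krtap block against both flanks, and the red corner patches inside the box are the upstream keratin block against the downstream keratin block, at -3.45 to -2.11 and 0.81 to 1.46 over the 8 libraries.

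The downstream edge of the chromosome 11 array, between Krt42 and Eif1, was among the junctions with fewest contacts across them. Insulation was measured as the contacts between the 500 kb on either side of a junction, as log2 of the median over 44191 autosomal junctions. At this edge the libraries had -1.58, -1.81, -1.78, -1.70, -1.54, -1.40, -2.17 and -2.00 (mean -1.75 ± 0.25, SD, n = 8), which placed it among the lowest 0.0634 to 0.371% of junctions. The pre-S libraries were the lowest and the second imminent division library the highest. With 250 kb squares, an alternative chosen after the data were seen, the mean was -1.11 and the edge lay among the lowest 0.271 to 8.46%. The upstream edge next to Krt222 was not insulated: its mean was 0.75 ± 0.33 (SD, n = 8), with 0.90 to 1.1 in the 3 h and 10 h libraries, 0.33 and 0.38 at imminent division and 0.56 and 0.55 in pre-S. The edges of the chromosome 15 array were less marked, with a mean of 0.27 beside Krt80 and -0.36 beyond Krt18, the latter 0.156 with 250 kb squares. On chromosome 16 the edge beyond Krtap11-1 had a mean of -1.02 ± 0.09 (SD, n = 8), within the lowest 1.76 to 5.0% of junctions, against -0.67 and the lowest 3.24 to 21.0% with 250 kb squares. In every library a junction in the flanks of this array was lower than its edge. The edge before Krtap24-1 had a mean of 0.09.

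**Figure D2:**
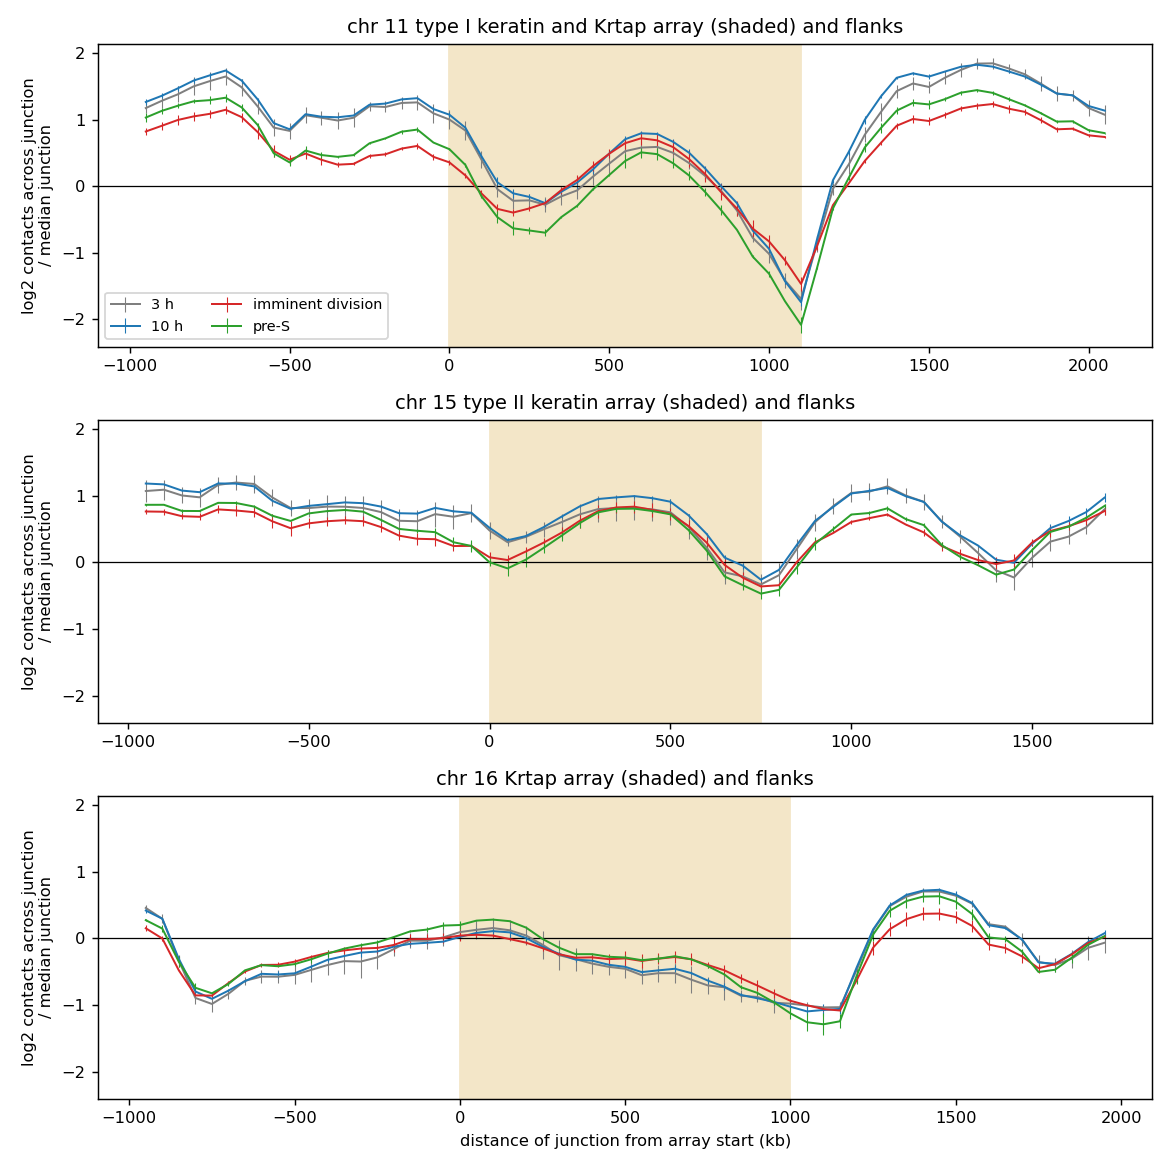
Log2 contacts across each junction over the median junction (y) against the distance of the junction from the array start in kb (x), as the mean of 2 libraries per group with SD bars, for the chromosome 11, 15 and 16 arrays (shaded). The lowest point of the upper panel lies at the downstream edge of the chromosome 11 array, where the mean over 8 libraries was -1.75.

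The arrays occupied different compartments. Compartment values are the first principal component of each chromosome's contacts in 100 kb regions, in SD units, with positive values for the A compartment (gene-rich, open) and negative ones for the B compartment. On chromosome 11 each library had 7 of 11 regions below 0, and the profile fell from 0.98 or more at Krt222 to a lowest value of -0.77 to -0.88, then rose to the downstream flank with medians of 1.13 to 1.16. The chromosome 15 array stayed above 0 in all 8 regions of every library, with library medians of 0.67 to 0.92. The chromosome 16 array was below 0 in all 11 regions of every library, with medians of -1.05 to -0.97.

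At 33 h 5 to 7 of the 11 chromosome 11 regions moved towards B against 10 h, and 2 or 3 of the 8 chromosome 15 regions moved towards A, where 14.5% of all regions at imminent division and 11.2% in pre-S were lower and 12.4% and 9.04% higher. The chromosome 15 calls fell to 0 without single libraries. In the region of Krt25 to Krt28, keratins of the inner root sheath of hair, and Krt10, the values were 0.99, 1.05, 0.90, 0.99, 0.62, 0.67, 0.70 and 0.71. All 4 libraries at 33 h were lower than the 4 earlier ones. The change from 10 h was -0.30 at imminent division (limma, FDR 0.00015) and -0.24 in pre-S (FDR 0.0012). The region of Krt12 (the cornea keratin), Krt20 (an intestinal keratin) and Krt23 had 0.49, 0.50, 0.33, 0.52, 0.11, 0.11, 0.19 and 0.17, again without overlap between 33 h and earlier. It changed by -0.31 (FDR 0.00086) and -0.25 (FDR 0.0055). The region of Krt14, Krt16, Krt17 and Krt42, at the other end of the array, had 0.43, 0.43, 0.39, 0.48, 0.22, 0.22, 0.27 and 0.31, and changed by -0.21 (FDR 0.00062) and -0.14 (FDR 0.0089). The region of Krt222 and Krt24 changed by -0.16 (FDR 0.0011) and -0.12 (FDR 0.0087). The region at the border of the upstream keratin and Krtap blocks changed by -0.22 and -0.25 (both FDR 0.0014). Both ends of the array were therefore lower at 33 h, and some flank regions were too. Those of Eif1 with Jup, of Ccr7 and of Top2a changed by -0.18, -0.11 and -0.13 at imminent division (FDR 0.0003419, 0.006434 and 0.01023). In pre-S they changed by -0.09, -0.07 and -0.105 (FDR 0.02334, 0.04853 and 0.03326). The Rara region was called in neither (-0.01 and -0.03). The regions of Krtap2-4 to Krtap17-1, between the ends of the array, had -0.45 to -0.88 over all libraries, and the region shared by Krt39, Krt40 and Krtap3-3 to Krtap9-3 had -0.02 to -0.33.

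On chromosome 15 the regions that were called, 2 of 8 at imminent division and 3 of 8 in pre-S, had changes of the other sign. The region of Krt6b and Krt6a, stress keratins of the skin, with Krt5 and Krt71 had 0.44, 0.48, 0.62, 0.65, 0.72, 0.74, 0.71 and 0.75. Each later time point lay above the earlier one without overlap. This region changed by 0.18 from 3 h to 10 h (FDR 0.008999), by 0.10 from 10 h to imminent division (FDR 0.019) and by 0.10 from 10 h to pre-S (FDR 0.030). Upstream of it in the array the hair keratin region of Krt81, Krt86, Krt83 and Krt84 had 0.64, 0.70, 0.80, 0.78, 0.86, 0.86, 0.89 and 0.88, with a change of 0.12 from 3 h to 10 h (FDR 0.034).

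Over the 30 array regions, 2 changed between 3 h and 10 h, both towards A, where 4.35% of all regions were called and 2.42% were called towards A. Between 10 h and imminent division 7 regions changed, or 23.3% against 27% of all regions, of which 5 of 11 on chromosome 11 were lower and 2 of 8 on chromosome 15 higher (14.5% of all regions lower, 12.4% higher). Between 10 h and pre-S 10 changed, or 33.3% against 20.2% of all regions, with 7 lower on chromosome 11 and 3 higher on chromosome 15 (11.2% of all regions lower, 9.04% higher). Between imminent division and pre-S 1 of 30 changed (15.3% of all regions, 7.38% lower), the region of Krtap27-1 and Krtap13-1 on chromosome 16, which was 0.20 lower at imminent division (change -0.20, FDR 0.0056). The 3 comparisons with 10 h share its 2 libraries. The chromosome 15 calls depended on single libraries: at imminent division 0 in place of 2 were called without the first 10 h or either imminent division library and 1 was called without the second 10 h library, and in pre-S 0 in place of 3 were called without the first 10 h or second pre-S library, 1 without the second 10 h and 2 without the first pre-S library. Without either 3 h library, which leaves the samples compared in place, 5 were called at imminent division and 5 in pre-S. Quantile normalisation gave 4, 10, 13 and 4 regions, of which 4, 5, 7 and 3 were higher, so the share of higher calls rose in the last 3 comparisons. Without the first or second 10 h library no region was called between 3 h and 10 h, 1 without the first 3 h library and 5 without the second, 1 without either imminent division library, 5 and 4 were called in pre-S without the second 10 h and second pre-S library, and the chromosome 16 call was lost without the second pre-S library.

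**Figure D3:**
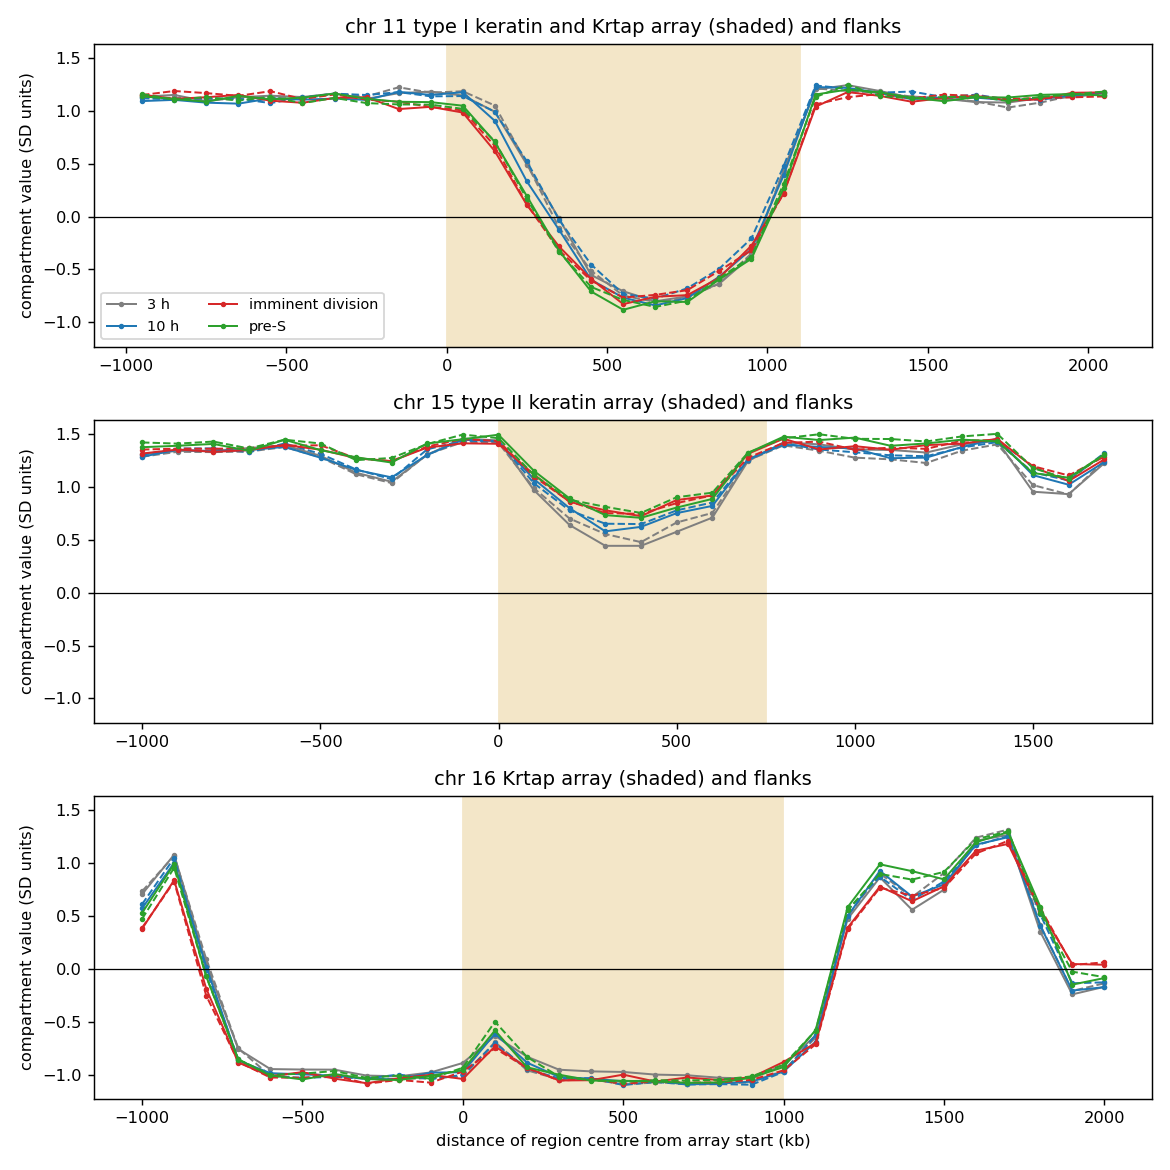
Compartment value in SD units of 100 kb regions (y) against distance from the array start in kb (x), with a line for each of the 8 libraries (second libraries dashed), for the chromosome 11, 15 and 16 arrays (shaded). On chromosome 11 the 33 h libraries lie below the earlier ones at Krt222 to Krt23 and at Krt14 to Krt42. At Krt36 to Krt9 only the pre-S libraries do (change from 10 h -0.13, limma, FDR 0.021). On chromosome 15 the 3 h libraries lie lowest at Krt81 to Krt71.

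Local contacts, the read pairs that join a bin to bins 50 to 500 kb away, were lower in the chromosome 11 array than in its flanks at every time. Each read pair counts in both of its bins. Neighbouring bins therefore share read pairs, and counts of called bins are not counts of independent observations. The median over the array, in normalised log2 counts, was 3.02, 2.89, 2.96, 3.04, 2.86, 2.92, 2.74 and 2.68, against flank medians of 3.77 to 4.04. The pre-S libraries were the lowest and did not overlap the others. The chromosome 15 array had medians of 3.12 to 3.33 and the chromosome 16 array of 2.31 to 2.35. Between 3 h and 10 h no array bin changed (0 of 57 by edgeR, 0.27% of all bins called), with 5 at an unadjusted p under 0.05 and 0 by DESeq2. The bin of Krt72, a type II inner root sheath keratin, came closest, with a change of 0.17 ± 0.045 (SE, FDR 0.09676), followed by the bin of Krt36, Krt13, Krt15 and Krt19 (0.15, FDR 0.3303).

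From 10 h to imminent division 13 of 57 array bins changed and all were lower, or 22.8% where 29.4% of all bins were called and 15.1% lower. They were 9 of 22 on chromosome 11, 4 of 15 on chromosome 15 and 0 of 20 on chromosome 16. On chromosome 11 they lay mainly in the upstream keratin block (5 of 7 bins), with 2 of 9 in the Krtap block and 2 of 6 in the downstream keratin block. The flank beyond Krt222 was lower too, in 15 of 20 bins. In the bin of Krt24 the libraries had 3.94, 3.84, 3.83, 3.85, 3.56, 3.60, 3.65 and 3.65, with all 33 h libraries below the earlier ones. The change was -0.26 ± 0.04 (SE, FDR 2.276e-05). The bin of Krt23 fell by 0.19 (FDR 0.00555), and the bin of Krt25 and Krt26 by 0.17 (FDR 0.003965). On chromosome 15 the bin at the 3′ end of Krt80, in which no gene starts, fell by 0.17 (FDR 0.002415). The Krtap4-13 bin had 2.60, 2.34, 2.40, 2.36, 1.91, 2.14, 1.76 and 1.74, lowest in pre-S, and fell by 0.35 at imminent division (FDR 0.0007615). With bin coverage in the offsets 21 bins were called, 20 of them on chromosome 11, and DESeq2 called 6. Without the first 10 h, second 10 h or first imminent division library 5, 4 and 6 were called. The 4 calls on chromosome 15 fell to 1 with the replicate block and to 1, 1, 1 and 2 without the first 10 h, second 10 h, first imminent division and second imminent division library.

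In pre-S cells nearly the whole chromosome 11 array had fewer local contacts than at 10 h. Of its 22 bins 21 were lower (32.4% of all bins called, 16.7% lower and 15.7% higher), the exception being the bin of Krt222 and the chromatin remodeller gene Smarce1, with 3.86, 3.78, 3.73, 3.77, 3.68, 3.62, 3.68 and 3.72. That bin was called lower with TMM factors (-0.26, FDR 0.001823), bin coverage in the offsets (-0.28, FDR 6.634e-05) and DESeq2 (-0.27, FDR 0.001589). The array median of the change was -0.30. The flanks were called in 11 and 3 of 20 bins. In the bin of Krt14, the basal keratinocyte keratin, and Krt16 the libraries had 2.87, 2.59, 2.70, 2.73, 2.57, 2.75, 2.25 and 2.29. Both pre-S libraries lay below the other 6, and the change was -0.45 (FDR 0.0001731). The bin of Krt12 and Krt20 had 3.13, 3.16, 3.13, 3.19, 3.04, 3.02, 2.87 and 2.80 and fell by 0.32 (FDR 8.455e-05). The Krtap4-13 bin changed most, by -0.63 ± 0.083 (SE, FDR 8.996e-06), and the bin of Krtap31-1, Krtap31-2 and Krtap9-5 fell by 0.35 (FDR 0.0002137). The bin of Krt36, Krt13, Krt15 and Krt19, among them the oral keratin Krt13, fell by 0.34 (FDR 0.0002118). On chromosome 15 10 of 15 bins were lower (median -0.15), and on chromosome 16 3 were higher and 2 lower (median 0.04).

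Over the 3 arrays 36 of 57 bins were called in pre-S (63.2%), and 8.33% of them were higher, a share that depended on the scaling. With TMM factors 53 were called and 30.2% were higher (22 lower on chromosome 11, 15 lower on chromosome 15, 16 higher on chromosome 16), and with DESeq2 42 were called and 23.8% were higher. With bin coverage in the offsets 23 were called, 22 on chromosome 11 and 1 on chromosome 15. Without the second 10 h or first pre-S library 21 and 22 were called, 17 and 18 of them lower on chromosome 11 and 2 and 1 lower on chromosome 15. Over all alternatives run, including each library left out, 15 to 22 bins were called lower on chromosome 11 and 1 to 15 on chromosome 15.

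**Figure D4:**
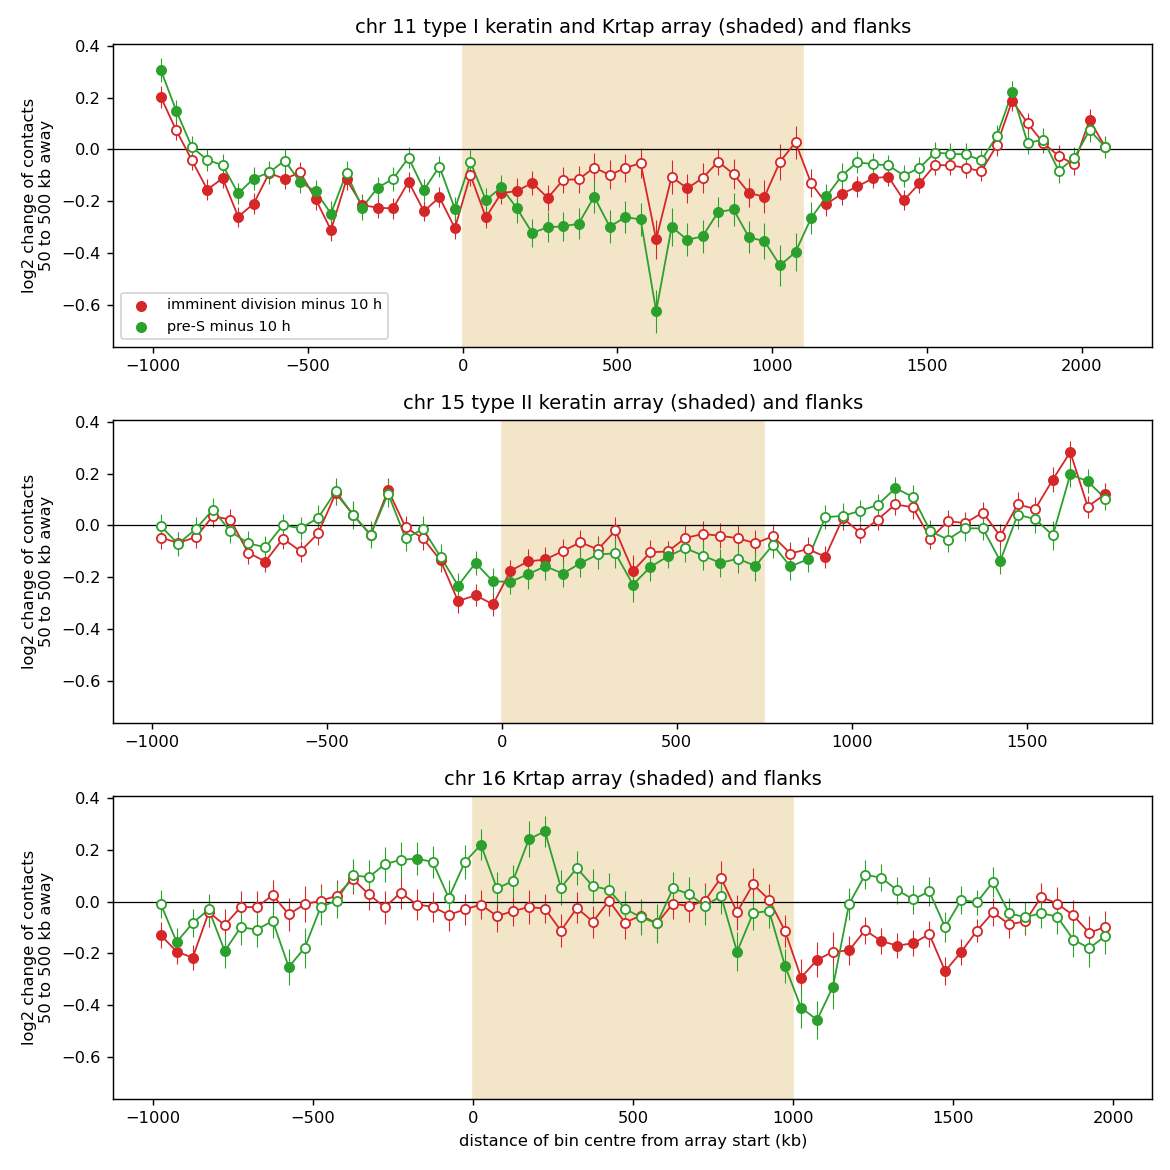
Log2 change of contacts 50 to 500 kb away from 10 h to imminent division (red) and to pre-S (green) per 50 kb bin, with SE bars (y), against distance of the bin from the array start in kb (x), for the 3 arrays (shaded) and their flanks. Filled points passed FDR 0.05: 21 of 22 chromosome 11 array bins were lower in pre-S, against 9 at imminent division.

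The imminent division and pre-S groups, compared directly at 33 h, differed in 15 of 57 array bins, or 26.3% (11.5% of all bins called, 6.95% higher at imminent division and 4.55% lower). On chromosome 11 12 of 22 bins were higher at imminent division, with a median of 0.18, and 0 of the 40 flank bins were called. The bin of Krt17, a stress keratin of the skin, and Krt42 had 2.73, 2.54, 2.58, 2.66, 2.56, 2.73, 2.21 and 2.25, lowest in pre-S. It was 0.42 higher at imminent division (SE 0.069, FDR 0.0002321), and the Krt14 and Krt16 bin 0.40 higher (FDR 0.001094). On chromosome 16 3 bins at the upstream end were lower. The bin of Krtap14 and Krtap15 had 2.65, 2.77, 2.70, 2.73, 2.74, 2.65, 3.00 and 2.98, highest in pre-S, and differed by -0.30 (FDR 0.001034). The Krtap13 bin differed by -0.26 (FDR 0.008904) and the Krtap24-1 and Krtap26-1 bin by -0.23 (FDR 0.009509). This comparison was sensitive to the library set and the scaling. Without the second imminent division library, which stood apart on chromosomes X and Y, 3 bins were called, and 5 and 4 without the first and second pre-S library. DESeq2 called 1, a 50 to 250 kb window 7 (28.6% higher), and offsets with bin coverage 3 (33.3% higher).

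Single pairs of bins were tested as differential interactions (DIs, edgeR, FDR 0.05) over 3062 pairs that involve an array bin. Between 3 h and 10 h 0 of 3062 were DIs (0.000617% of all pairs), with 207 at an unadjusted p under 0.05 and 0 by DESeq2. The pair with the smallest p joined the Krt72 bin with the Krt78 bin, with 49, 123, 132, 145, 188, 217, 106 and 85 read pairs, a change of 0.58 and an FDR of 0.3509. Between 3 h and 10 h 38 of 42 pairs that join the 2 keratin blocks of chromosome 11 had a change above 0 (median 0.60), and none was a DI.

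From 10 h to imminent division 65 pairs were DIs, or 2.12%, where 2.01% of all pairs were called. Of them 3 were gained (0.691% of all pairs gained) and 62 lost (1.32% of all pairs lost). The chromosome 11 array had 43 DIs among 1006 pairs (4.27%), that of chromosome 15 had 21 among 1385 (1.52%), all lost, and that of chromosome 16 had 1 among 671 (0.149%), which was gained. Loss was concentrated where the upstream keratin block meets the upstream flank, with 31 of 101 tested pairs lost and a median of -0.75. The pair of the Krt24 bin with the bin of Cdc6, which licenses replication origins, and Rara, a retinoic acid receptor, had 55, 94, 76, 127, 74, 103, 54 and 50 read pairs before scaling by depth, and changed by -0.94 (FDR 4.546e-05). The pair of the Krt25 and Krt26 bin with the bin of the connexin gene Gjd3 had 49, 68, 73, 92, 64, 77, 67 and 53 and changed by -1.0 (FDR 0.0001066). The pair of the Krt23 bin with the bin of Top2a, the topoisomerase of dividing cells, had 20, 31, 35, 51, 37, 27, 21 and 25 and changed by -1.29 (FDR 0.0004198). The Krt24 bin also lost contact with the bin of Wipf2 (37, 62, 58, 71, 55, 56, 40 and 28 read pairs, change -1.03, FDR 0.0003598). Relative to depth the imminent division libraries were below the 10 h libraries in all 4 pairs. On chromosome 15 the bin at the 3′ end of Krt80 lost contact with the bin of Pfdn5 and Myg1 1 Mb away (5, 13, 23, 14, 7, 7, 17 and 11 read pairs, change -2.25, FDR 0.0003325). Tested pairs had a median change of -0.32 (chromosome 11 array), -0.40 (chromosome 15) and 0.12 (chromosome 16), against 0.03 for all features. TMM factors gave 183 DIs, offsets with bin coverage 165, a 2-fold background filter 32 and DESeq2 20, with 0 to 12 gained. Without the first or second 10 h library there were 25 and 10, and without the first or second imminent division library 25 and 30.

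From 10 h to pre-S 15 pairs were DIs, or 0.49% against 0.593% of all pairs, 13 of them lost (0.255% of all pairs lost, 0.339% gained), with 5 on chromosome 11, 8 on chromosome 15 and 2, both gained, on chromosome 16. The strongest joined the Krt80 end of the chromosome 15 array with the bin of the activin receptor gene Acvr1b upstream. It had 91, 150, 115, 114, 110, 136, 54 and 45 read pairs and changed by -0.92 (FDR 0.0008825). The Smarce1 and Krt222 bin lost contact with the Krt12 and Krt20 bin, with 29, 67, 45, 57, 71, 75, 21 and 15 read pairs and a change of -1.26 (FDR 0.004832). The Krt12 and Krt20 bin also lost contact with the Tns4 bin of the upstream flank (26, 32, 52, 49, 41, 65, 23 and 18 read pairs, change -1.08, FDR 0.02238), and the Krt80 end with the bin of Ankrd33 and Acvrl1 (79, 97, 84, 119, 97, 130, 47 and 41 read pairs, change -0.92, FDR 0.00257). Relative to depth both pre-S libraries were below both 10 h libraries in all 4 pairs. The gained pair on chromosome 16 between the Krtap13 bin and the Krtap14 and Krtap15 bin had 77, 134, 113, 147, 214, 236, 163 and 136 and rose by 0.53 (FDR 0.02281). DESeq2 called 1 pair, a 2-fold background filter 3, offsets with bin coverage 5 and TMM factors 23. Without either 10 h library there were 3 and 4, and without either pre-S library 0 and 3.

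Between imminent division and pre-S 11 pairs were DIs, 0.359% where 0.36% of all pairs were, and 7 of them were higher at imminent division (0.146% of all pairs higher, 0.214% lower). On chromosome 11 5 of the 8 lay within the array and all 5 were higher. The pair of the Krt25 and Krt26 bin with the Krtap4-8 and Krtap4-9 bin had 4, 6, 10, 11, 34, 43, 5 and 6 read pairs and differed by 1.77 (FDR 0.01432). The pair of the Krt12 and Krt20 bin with the bin of the hair keratins Krt31, Krt32 and Krt35 had 15, 33, 18, 40, 65, 69, 12 and 14 and differed by 1.28 (FDR 0.01157). The Krt14 and Krt16 bin met the bin of P3h4 and Fkbp10 in the downstream flank with 7, 15, 9, 15, 28, 33, 3 and 4 read pairs, a difference of 2.07 (FDR 0.01529). Imminent division libraries had the most read pairs in all 3. The 2 strongest differences of the other sign joined the Krt17 and Krt42 bin with the Gjd3 bin (6, 4, 10, 25, 15, 8, 23 and 18 read pairs, -1.84, FDR 0.002474) and, on chromosome 15, the Krt80 end with the Pfdn5 and Myg1 bin (-1.98, FDR 0.0152). Of 57 tested pairs between the upstream keratin block and the Krtap block 56 were above 0, with a median of 0.49 and 4 DIs. This difference depended on the scaling. The mean log2 contacts over expected between these blocks were -0.17 at imminent division and -0.58 in pre-S. With bin coverage included they were -1.05 and -1.03. The direction depended on the scaling: 63.6% of DIs were higher in the main test, and with bin coverage in the offsets 36 were called and 13.9% were higher. DESeq2 called 0, TMM factors 23 and a 2-fold background filter 4, and without the second imminent division, first pre-S or second pre-S library 1, 0 and 2 were called.

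The TAD boundary measure, the log2 ratio of contacts with the 1 Mb upstream over those with the 1 Mb downstream of a 100 kb region, was tested with edgeR against a fold of 1.1. The FDR belongs to the change of the signed ratio, and the changes and directions given here are those of its size, the distance from 0. Between 3 h and 10 h 0 of 30 array regions changed (0.336% of all regions), with 3 at an unadjusted p under 0.05 and 3 at FDR 0.05 without the fold. From 10 h to imminent division 5 changed, 3 of them lower and 2 higher (17.8% of all regions called, 13.2% lower and 4.57% higher). To pre-S 3 changed, 2 lower and 1 higher (4.9% of all regions called, 2.87% lower and 2.04% higher), and between imminent division and pre-S 2, 1 each way (5.47% of all regions called, 4.88% lower and 0.598% higher). The share of array regions called was thus close to that of all regions at imminent division, 16.7%. The region of Krt222 and Krt24 had ratios of 1.18, 1.15, 1.2, 1.26, 0.74, 0.73, 1.3 and 1.15, lowest at imminent division, where its size fell by 0.50 from 10 h (FDR 2.8e-10) and was 0.50 lower than in pre-S (change -0.50, FDR 9.2e-08). The region of Krt25 to Krt28 and Krt10 had 0.66, 0.68, 0.48, 0.42, -0.04, -0.05, 0.16 and 0.17 and passed just below 0 at imminent division. The ratio changed by -0.50 there (FDR 3.9e-10) and its size by -0.41, and both fell by 0.28 in pre-S (FDR 0.045). The region of Krt12, Krt20 and Krt23 leaned downstream, with -0.24, -0.22, -0.31, -0.22, -0.76, -0.72, -0.52 and -0.35, and grew by 0.48 at imminent division (FDR 1.5e-08), 0.30 more than in pre-S (FDR 0.032). With 500 kb flanks these changes were -0.20 and -0.06 and no region rose. On chromosome 15 the region before Krt80 had 0.81, 0.62, 0.45, 0.64, 0.14, 0.07, 0.29 and 0.25, lower in all 33 h libraries, and fell by 0.45 at imminent division (FDR 3.5e-08) and by 0.28 in pre-S (FDR 0.042). On chromosome 16 the region of Krtap8-1 and Krtap7-1 rose by 0.28 at imminent division (FDR 0.047) and that of Krtap11-1 by 0.36 in pre-S (FDR 0.041). The first of these was not called with 500 kb flanks, with the replicate block, or without the second 10 h library or any 1 of the 33 h libraries, and the second not with 500 kb flanks or without either 10 h library or the first pre-S library.

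A strong ratio lay just outside the chromosome 11 array, in the region of Eif1 and of Jup, which encodes the junction protein plakoglobin. It had -1.94, -2.05, -2.18, -2.17, -1.41, -1.32, -2.03 and -1.97, least far from 0 at imminent division. Its size fell by 0.81 from 10 h to imminent division (FDR 4.9e-21). Pre-S calls at array regions were 3 in the main test, 0 with 500 kb flanks, 7 without the fold, 1 or 0 without either 10 h library and 0 or 1 without either pre-S library. Imminent division calls were 12 without the fold, 6 of them higher, and the 2 differences from pre-S were 5 without the fold (20% higher), 1 with 500 kb flanks and 1 without the first imminent division or second pre-S library.

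Contacts between chromosomes joined the type I and type II arrays more often than their bin coverage gave. Between the chromosome 11 and chromosome 15 arrays there were 46, 76, 65, 84, 123, 166, 60 and 53 read pairs, or 3.41, 3.37, 4.01, 3.96, 4.42, 4.45, 4.22 and 3.74 times the number expected from coverage. All 8 libraries were above 1, and the 3 h libraries were the lowest. The 673 read pairs were spread over 270 of 330 bin pairs, with no more than 9 in one, and all 22 and 15 bins took part. Contacts of the chromosome 11 array with the chromosome 15 flanks were 1.14 to 2.17 times expected, and those of the chromosome 15 array with the chromosome 11 flanks 0.62 to 1.48 times. The flanks met each other at 2.83 to 3.45 times expected, so the excess was not particular to the arrays. Without coverage in the expectation the mean log2 value of the arrays was 2.81 in place of 1.97, and that of the flanks 2.85 in place of 1.66, so the order of the 2 depended on the expectation. The chromosome 16 array met the chromosome 11 array at 0.20 to 1.02 times expected (89 read pairs) and the chromosome 15 array at 0.14 to 1.07 times (56 read pairs), and with the flanks of both it stayed at 0.05 to 0.25 times. These values rest on few read pairs and were not tested between groups.

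**Figure D5:**
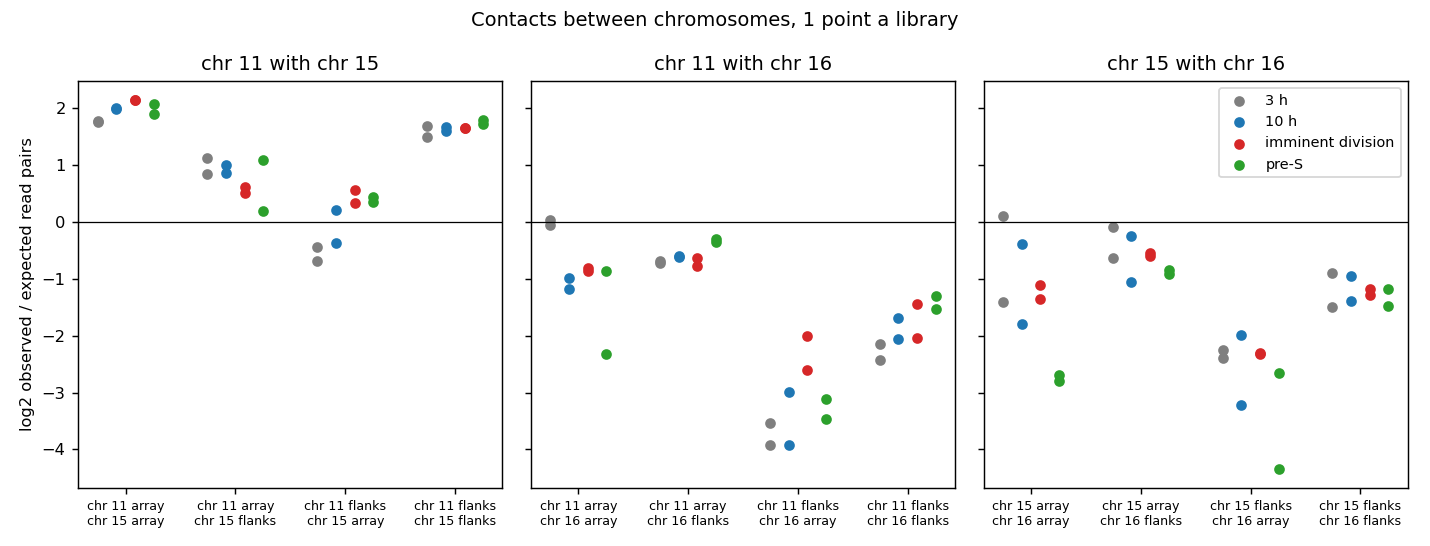
Log2 of observed over expected read pairs between chromosomes (y) for arrays and flanks of each pair of chromosomes (x), with a point per library coloured by group. Chromosome 11 with chromosome 15 arrays lie at 3.37 to 4.45 times expected in all 8 libraries, and contacts of the chromosome 16 array with flanks lie below 0.

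Genes that act with keratins were examined by the same local measure, in 26 bins outside the arrays, of which those of Jup and Hoxc13 lie in the downstream flanks of the chromosome 11 and 15 arrays. None was called between 3 h and 10 h (0 of 26 by edgeR, 8 at an unadjusted p under 0.05, 0 by DESeq2), 6 changed from 10 h to imminent division (3 higher, 29.4% of all bins called), 11 from 10 h to pre-S (5 higher, 32.4% of all bins called) and 1 between imminent division and pre-S (11.5% of all bins called), the bin of the hair regulator Dlx3 (-0.14, FDR 0.0397), where DESeq2 called 0. The bin of Trp63, the master regulator of stratified epithelia, rose by 0.52 at imminent division (FDR 3.122e-08) and 0.38 in pre-S (FDR 2.791e-05). Hoxc13, a regulator of hair keratin genes, rose by 0.28 (FDR 2.111e-05) and 0.20 (FDR 0.003085). The plakophilin gene Pkp2 rose by 0.20 at imminent division (FDR 0.002659). The bins of Jup, of the epidermal regulator Grhl3 and of the cross-linking enzyme gene Tgm1 fell by 0.21 (FDR 0.0007377), 0.17 (FDR 0.003144) and 0.17 (FDR 0.004087). The bins of the desmosome gene Dsp and the plakin genes Plec, Ppl and Evpl had changes between -0.07 and 0.01 at imminent division and were not called.

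Local contacts in the bins of landmark genes placed these changes along the arrays. Local contacts of the Krt10 bin fell by 0.16 at imminent division (FDR 0.01519) and by 0.23 in pre-S (FDR 0.002937), and those of Krt19, a keratin of simple epithelia, by 0.17 (FDR 0.02153) and 0.34. The Krt14 and Krt42 bins had changes of -0.05 and 0.03 at imminent division, which were not called, and of -0.45 and -0.40 in pre-S, which were. With bin coverage in the offsets both were called at imminent division too (-0.24, FDR 0.001542, and -0.25, FDR 0.001372). Their pre-S changes were then -0.32 each, so the difference between the groups depended on the scaling. Krtap3-1 and Krtap9-3 share a bin that changed by -0.12 at imminent division (FDR 0.09917) and -0.29 in pre-S (FDR 0.0006846). With bin coverage in the offsets this bin was called in both, and the order turned (-0.42, FDR 1.502e-09, and -0.38, FDR 4.807e-06). On chromosome 15 Krt7 and Krt80 fell at both, by 0.13 and 0.14 at imminent division and by 0.16 and 0.19 in pre-S. Krt5 and the bin that Krt8 and Krt18 share were called in pre-S (-0.16 each, FDR 0.02169 and 0.03272) and had -0.10 and -0.07 at imminent division, but imminent division and pre-S did not differ past the threshold there (0.06, FDR 0.4884, and 0.09, FDR 0.2884), and Krt1 was called in neither. In pre-S Krt1 was called with TMM factors (-0.24, FDR 0.006504) and DESeq2 (-0.24, FDR 0.02542). With TMM factors Krt5 was also called at imminent division (-0.17, FDR 0.03786). Of the chromosome 16 landmarks Krtap11-1 fell by 0.25 in pre-S (FDR 0.005261), and Krtap8-1 was not called. The Krtap8-1 change in pre-S was -0.045 in the main test. It was called higher with TMM factors (0.23, FDR 0.0441), and DESeq2 gave 0.23 (FDR 0.06894). The Krtap11-1 call was lost when the first pre-S library was left out (-0.22) or bin coverage entered the offsets (-0.04), and the sign turned with TMM factors and DESeq2 (0.07 each). Without the first pre-S library the pre-S calls of Krt10, Krt5, Krt7, Krt80 and the Krt8 and Krt18 bin were not made either, and with bin coverage in the offsets no chromosome 15 landmark was called, Krt5 having a change of 0.04 in pre-S. DESeq2 did not call Krt10, Krt19, Krt7 or Krt80 at imminent division.

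In the flanks, Ccr7, the chemokine receptor gene that guides lymphocytes into lymph nodes and lies beside Krt222, had a local change of -0.30 at imminent division (FDR 5.793e-06) and -0.23 in pre-S (FDR 0.0005772). Rara changed by -0.23 (FDR 9.045e-05) and -0.15 (FDR 0.009341), and Top2a by -0.13 (FDR 0.0138) and -0.03 (FDR 0.5744). In pre-S Top2a was called with TMM factors (-0.32, FDR 0.0002365) and DESeq2 (-0.33, FDR 3.696e-05). Beyond Krt42, Eif1 had -0.13 (FDR 0.07457) and -0.27 (FDR 0.001713). With bin coverage in the offsets it was called at imminent division (-0.35, FDR 6.529e-07). Next to the type II array, Eif4b had changes of -0.04 and -0.07 and was not called, Tns2 was called in pre-S (-0.16, FDR 0.01858) and the integrin gene Itgb7 at imminent division (-0.12, FDR 0.03065). TMM factors and DESeq2 called Eif4b in pre-S (-0.215, FDR 0.008023, and -0.219, FDR 0.01832). Both called Tns2 at imminent division (-0.224, FDR 0.007034, and -0.225, FDR 0.02252). In pre-S Itgb7 turned from 0.03 to -0.175 with TMM factors (FDR 0.03018) and -0.18 with DESeq2 (FDR 0.03609). Around the chromosome 16 array the repressor gene Bach1 was lower in both (-0.19, FDR 0.002988, and -0.16, FDR 0.02449), Tiam1 at imminent division (-0.20, FDR 0.004436), and Sod1 and the claudin gene Cldn8 in neither. The Cldn8 change in pre-S was 0.15 in the main test. It was called higher with TMM factors (0.31, FDR 0.001277) and DESeq2 (0.31, FDR 0.008986). The pre-S calls of Rara, Eif1, Tns2 and Bach1 were not made without the first pre-S library. With bin coverage in the offsets none of the calls of Itgb7, Tns2, Bach1 and Tiam1 was made.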

How the data were processed

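In situ Hi-C with MboI gave 8 libraries, 2 per group. The authors aligned reads to mm10 (GRCm38) with diffHic, marked duplicates, removed dangling ends, and deposited raw counts of read pairs per pair of 50 kb bins for each library. Genes were placed from a GENCODE annotation of that build. Of 48088 autosomal bins 749 were left out for over 10% unknown bases or coverage more than 4-fold from the median, and 47339 were kept. Bin pairs were kept at 4-fold over the interchromosomal background. Counts were tested with edgeR 4.0.16 (quasi-likelihood, robust, loess offsets split at 1.5 Mb for pairs), boundary ratios against a fold of 1.1, and compartment values with limma 3.58.1, in R 4.3.3, at a false discovery rate of 5% over all features. All groups entered each fit and shared its spread estimate. Descriptive values were computed with Python 3.11.15, NumPy 2.4.6 and pandas 2.3.3.

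Named in each comparison and measure were up to 5 array bins, pairs or regions of smallest p past the threshold (2 where none passed), and 28 landmark genes whatever their values. Other bins, pairs and regions, and the examples among 26 partner genes, were named after their values were seen. The members and lists were chosen with earlier results of these data known. Alternatives were TMM factors, bin coverage in the offsets, DESeq2 1.42.0, other filters, windows and flanks, quantile normalisation, a replicate block and leaving out each library. An expectation without coverage and 250 kb insulation squares were added after seeing the data.

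Tested on simulated data for imminent division against 10 h, 41% of 2-fold changes of pairs (204748 pairs), 65% of 1.2-fold and 99% of 1.5-fold changes of local contacts, 43% of 1.3-fold and 100% of 1.6-fold changes of boundary ratios and 100% of compartment changes of 0.3 were recovered, with 5, 11, 1 and 8 false calls for pairs, local contacts, boundary ratios and compartment values. The simulated noise was set to fixed values and not estimated from these libraries. Changed pairs were drawn only from those with higher mean counts. The shares recovered are therefore not the power of the tests on the real counts.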

Additional observations from a re-analysis of the deposited data

How the results depend on the processing

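Replicate numbers were shared between groups, and the deviations of same-numbered libraries from their group means correlated at -0.0372 to 0.0112. These deviations were of single bin pairs, where count noise lowers a correlation. They cannot show whether the numbers pair the libraries. With the replicate block, local contacts called at imminent division against 10 h were 8 in place of 13, DIs in pre-S against 10 h 10 in place of 15, and no other total count of calls moved by over 1.5 times. Against the main counts of 65, 15 and 11 DIs (imminent division against 10 h, pre-S against 10 h, imminent division against pre-S), TMM factors gave 183, 23 and 23, bin coverage in the offsets 165, 5 and 36, a 2-fold background filter 32, 3 and 4, and DESeq2 20, 1 and 0. Against 13, 36 and 15 local calls, DESeq2 gave 6, 42 and 1, bin coverage 21, 23 and 3, TMM factors 14, 53 and 12 and a 50 to 250 kb window 12, 35 and 7. Boundary calls of 5, 3 and 2 became 12, 7 and 5 without the fold threshold, when 3 were also called between 3 h and 10 h, and 5, 0 and 1 with 500 kb flanks. Compartment calls of 2 between 3 h and 10 h and then 7, 10 and 1 became 4, 10, 13 and 4 with quantile normalisation. Leaving out each library in turn gave 10 to 71 DIs at imminent division against 10 h, 0 to 18 in pre-S against 10 h and 0 to 14 between imminent division and pre-S. Local contacts ranged over 4 to 15, 21 to 37 and 3 to 19 bins in the same order, boundary ratios over 4 to 5, 0 to 3 and 1 to 3 regions, and compartment values over 5 to 10, 4 to 13 and 0 to 1 regions, with 0 to 5 between 3 h and 10 h. With 500 kb flanks the boundary changes of the Krt12, Krt20 and Krt23 region turned to -0.1971 at imminent division against 10 h and -0.0619 against pre-S. The cause of these differences was not tested. Contacts over expected also depended on the expectation. With the expectation from the same chromosome the mean log2 value within the chromosome 11 array was -0.1925 in place of 0.09. With coverage in it, values within the array and with its upstream and downstream flanks were -0.5400, -1.1515 and -2.6071 on chromosome 11, -0.9832, -1.3739 and -1.8466 on chromosome 15, and -0.8634, -0.5067 and -1.9362 on chromosome 16. Without coverage the interchromosomal value of the chromosome 11 and 15 arrays was 2.8061. Depth limits the test of single pairs, where several DIs rest on under 50 read pairs a library.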
